A study of Culex quinquefasciatus with 20 samples.

Results

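The genes described here are the 178 transcripts of female *Culex quinquefasciatus* whose level was higher in both malathion-exposed groups than in both unexposed groups. They were chosen from the measured values. With TMM-normalized CPM (a gene's read count as a share of the library's reads, after a scaling factor between libraries), a gene was kept when its WI and CO means were at least 0.5 CPM, its mean over all libraries was under 1000 CPM, every MR and MS library lay above every WI and CO library, and the MR and MS means were each at least 2 times the higher of the WI and CO means. Of 19793 genes in the count files, 17499 passed the filter on low counts and were tested, and 178 of these (1.02%) met the rule. The lower of the MR and MS means divided by the higher of the WI and CO means is called the ratio below, and it ranked the genes. The same rule turned round, for genes lowered in both exposed groups, was met by 112 genes (every exposed library lay below every unexposed one in 1.45% of all genes).

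Each group held 5 libraries, and each library came from a pool of 10 whole females. WI and CO females were 3 days old at collection, and MS and MR females were 3 days old at exposure. WI were unexposed females reared from eggs collected in the field in the Houston area of Texas. CO were unexposed females of the Sebring laboratory colony, which is susceptible to malathion. WI and CO females were knocked down by cold (30 min for WI) before storage. MS and MR were field females that spent 120 min in glass bottles treated with malathion (400 µg per bottle). MS females were down at the end of the exposure (the labels call them knocked down and the methods dead). MR females were alive after a further 24 h, and so were older when collected. No females from a bottle without malathion were among these libraries, so malathion, handling in the bottle and the way the females were collected cannot be told apart in the exposed groups, and MR and MS also differ in time of collection. The labels call the replicates biological and the methods call them technical, so the tests measure the spread between these libraries. The labelled tissue is the whole body, and no tissue markers were named by these identifiers to check it against. In such material more cells of a type and more RNA per cell cannot be told apart.

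Total counts ran from 143972261 to 189723320 per library. The TMM factors were 0.563 to 0.704 in 4 MS libraries and 1.077 in MS1, against 1.01 to 1.22 in MR, 0.807 to 1.34 in WI and 0.841 to 1.72 in CO. Without MS1, 187 genes met the rule, 176 of them among the 178. With library size as the only scaling, 122 genes met it, 100 of them among the 178.

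The insect cuticle is a layered coat of chitin fibres and cuticular proteins that the epidermis secretes, and its deposition goes on for some days after the adult emerges. Cuticular proteins are a large family, many of which bind chitin, and chitin synthase makes the chitin polymer from a sugar nucleotide. Malathion is an organophosphate that, once activated by cytochrome P450s, blocks acetylcholinesterase, and carboxylesterases break it down.

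The 178 genes covered a wide range of rises. The ratio had a median of 3.41 and ran from 2.03 to 60.5, with 98 genes at 3 or more, 59 at 5 or more, 22 at 10 or more and 10 at 20 or more. Over the higher unexposed mean, the median fold was 3.59 in MR and 5.44 in MS. Group means of the 178 genes spanned 0.531 to 391 CPM (WI), 0.503 to 337 CPM (CO), 1.88 to 907 CPM (MR) and 2.45 to 2151 CPM (MS). Every gene had at least 143 reads in each exposed library, and 7 genes had a count of 0 in some unexposed library. CPM was not corrected for gene length, so levels were compared between groups of libraries and not between genes.

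In the fit over all genes, the median log2 fold change of the 178 genes was 2.00 for MR versus WI, 2.64 for MS versus WI, 2.51 for MR versus CO and 3.12 for MS versus CO. Over all 17499 genes the same medians were −0.01, −0.07, −0.05 and −0.10. These contrasts chose the genes, so they are given as a description without a test. Of all genes tested, 2.19% had every MR and MS library above every WI and CO library, and 384 genes make up that share. The level and fold limits brought these to 178, and another 121 genes met the level and fold limits with overlapping libraries.

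The 178 genes took a larger share of all reads in the exposed libraries. That rise follows largely from the rule that chose these genes, so it is a description. They received 0.25 to 0.399% of the counts in WI and 0.234 to 0.293% in CO, against 0.919 to 1.58% in MR and 1.38 to 2.02% in MS. Summed over the 178 genes, WI libraries held 2572 to 3282 CPM and CO libraries 1681 to 2777 CPM, whereas MR libraries held 8894 to 14548 CPM and MS libraries 18746 to 28065 CPM. The lowest of the 5 MS sums was that of MS1, and it was above every MR sum. The scaling factors bear on this order. As a share of counts, MS1 was the highest MS library (2.02%), and MS2 (1.38%) lay below MR1 (1.58%) and MR2 (1.54%).

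Cuticle and chitin genes were the largest group among the members that carry an annotation. The tables of the study give a gene ontology term or a name for 32 of the 178 genes, and 146 have neither. They give one for 1099 of the 17499 genes tested. Of the 32, 20 belong to a list of 56 cuticle and chitin genes, so 35.7% of that list met the rule. Among all genes tested 1.02% met it, but most of those carry no annotation, so this is not the share among annotated genes. Of these 20, 11 carry the term structural constituent of cuticle, 8 bind chitin and 1 is annotated as a chitin synthase. All 56 genes of the list, members or not, come from the study's own table of genes that differed between MR and MS in these libraries, so the list is not independent evidence of a difference involving either group, and its share is a description.

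The structural cuticle gene CPIJ019699, ranked 2, had the widest rise in MS among the 178 genes. It stood at 0.220, 1.15, 0.899, 2.62 and 1.78 CPM in CO, at 1.13, 1.96, 3.11, 2.80 and 1.54 CPM in WI, at 298, 500, 540, 748 and 847 CPM in MS and at 145, 154, 37.1, 41.2 and 180 CPM in MR. CO and WI overlapped, the MS libraries lay above all MR libraries, and MR3 and MR4 were the lowest exposed libraries. The mean was 278-fold the WI mean in MS and 52.8-fold in MR. Between the exposed groups, where the rule set no direction, it was lower in MR by a log2 fold change of −2.40 ± 0.52 (SE, edgeR FDR 0.00696, n = 5 and 5).

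The chitin-binding gene CPIJ000680, ranked 6, had the same shape. Its levels were 0.768, 2.19, 0.849, 1.49 and 1.40 CPM in CO, 1.46, 1.42, 1.78, 1.8 and 1.78 CPM in WI, 211, 284, 231, 289 and 228 CPM in MS and 89.6, 80.5, 12.1, 18.5 and 55.0 CPM in MR. MS and MR did not overlap, with MR3 and MR4 again lowest, and the log2 fold change of MR versus MS was −2.28 ± 0.41 (SE, edgeR FDR 0.00144). The genes with the next lower and next higher identifiers, CPIJ000679 and CPIJ000681, were also members and also bind chitin. CPIJ000679, ranked 12, averaged 0.957 ± 0.361 CPM in CO, 1.76 ± 0.50 in WI, 139 ± 25.7 in MS and 33.6 ± 17.1 in MR (SD, n = 5 each).

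The structural cuticle gene CPIJ017736, ranked 8, was at 1.47 to 3.08 CPM in CO and 1.93 to 5.02 CPM in WI. It reached 239, 311, 374, 596 and 530 CPM in MS and 105, 108, 30.6, 51.2 and 131 CPM in MR. The exposed groups did not overlap, and the log2 fold change of MR versus MS was −2.27 ± 0.38 (SE, edgeR FDR 0.000753).

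The chitin synthase gene CPIJ016255, ranked 31, rose less. It was at 2.18, 3.14, 2.07, 1.74 and 1.31 CPM in CO, 2.83, 1.95, 2.7, 2.13 and 2.09 CPM in WI, 53.5, 45.1, 52.7, 36.3 and 41.5 CPM in MS and 28.3, 28.2, 8.55, 6.86 and 11.3 CPM in MR. Here MR1 and MR2 came nearest to the MS libraries without reaching them, and the log2 fold change of MR versus MS was −1.46 ± 0.33 (SE, edgeR FDR 0.00955). With library size as the only scaling it was −0.89 and did not pass (FDR 0.143). This gene is also the only member among 11 UDP-glycosyltransferase genes.

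**Figure D1:**
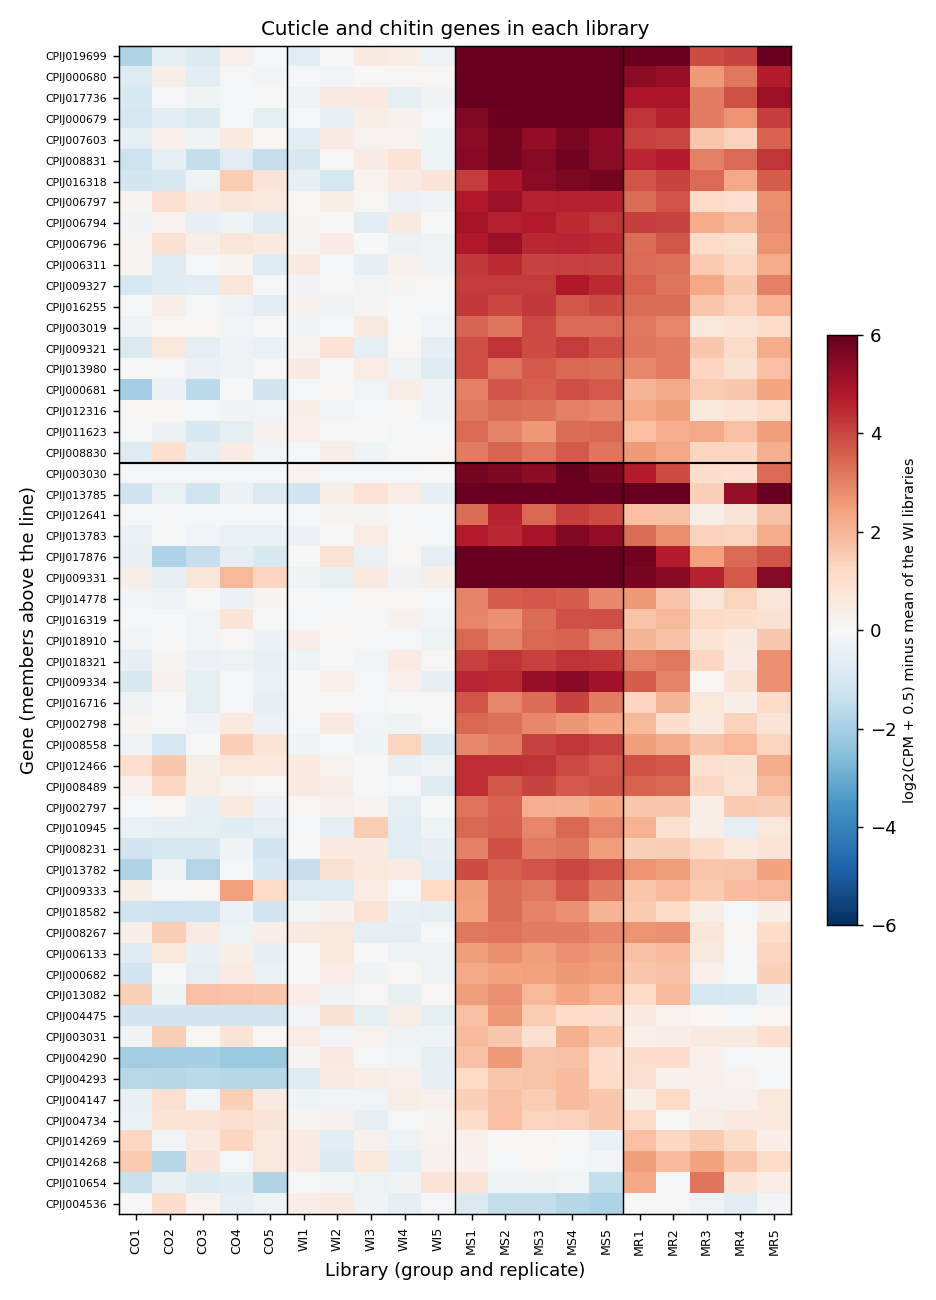
Level of the 56 cuticle and chitin genes (rows, members above the line, ordered by MS against WI) in the 20 libraries (columns), as log2(CPM + 0.5) minus the mean of the 5 WI libraries. Red is above that mean and colours stop at 6 on either side. The 20 members are red in all MS and MR libraries, which the rule required, and 19 of them are lower in MR3 and MR4 than in MR1 and MR2.

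Over the 20 cuticle and chitin members, the ratio had a median of 7.15 and ran from 3.68 to 52.8, and the median fold over the higher unexposed mean was 20.3 in MS and 7.15 in MR. The other 158 members had a median ratio of 2.98. The summed level of the 20 genes was 129 to 394 CPM in CO, 210 to 276 CPM in WI, 4909 to 8462 CPM in MS and 923 to 2930 CPM in MR. The MR sums were 2858, 2930, 1310, 923 and 2280 CPM for MR1 to MR5, and in 19 of the 20 genes both MR3 and MR4 were below both MR1 and MR2. The sums of the other members ran from 7584 to 11690 CPM in MR.

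Of the 36 cuticle and chitin genes outside the 178, 21 failed the limits on level, 18 of them with a WI or CO mean under 0.5 CPM and 3 with an overall mean of 1000 CPM or more. Libraries overlapped in 23 of the 36, and the ratio was under 2 in 12. Among the 21, 13 met every other part of the rule. None of the 56 genes met the reverse rule. The counts over the whole list are likewise a description, since all 56 genes were chosen on MR and MS of these libraries and a high share of calls against WI and CO can follow from that choice. The 20 members among the 56 were also placed above WI and CO by the rule. Over the whole list, 45 genes were called higher in MR than in WI and 0 lower (background 4.95% higher and 3.99% lower, edgeR FDR under 0.05), 52 higher and 1 lower in MS than in WI (background 12.3% and 11%), 49 higher and 0 lower in MR than in CO (background 12.2% and 9.96%) and 51 higher and 2 lower in MS than in CO (background 19.3% and 18.9%). For MR versus WI and MR versus CO, 0 genes were lower at an unadjusted p under 0.05 and 0 with DESeq2. The list's median log2 fold changes in these contrasts were 2.57, 4.24, 3.05 and 4.66. The contrasts share libraries. With library size alone the counts higher were 44, 50, 47 and 48.

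**Figure D2:**
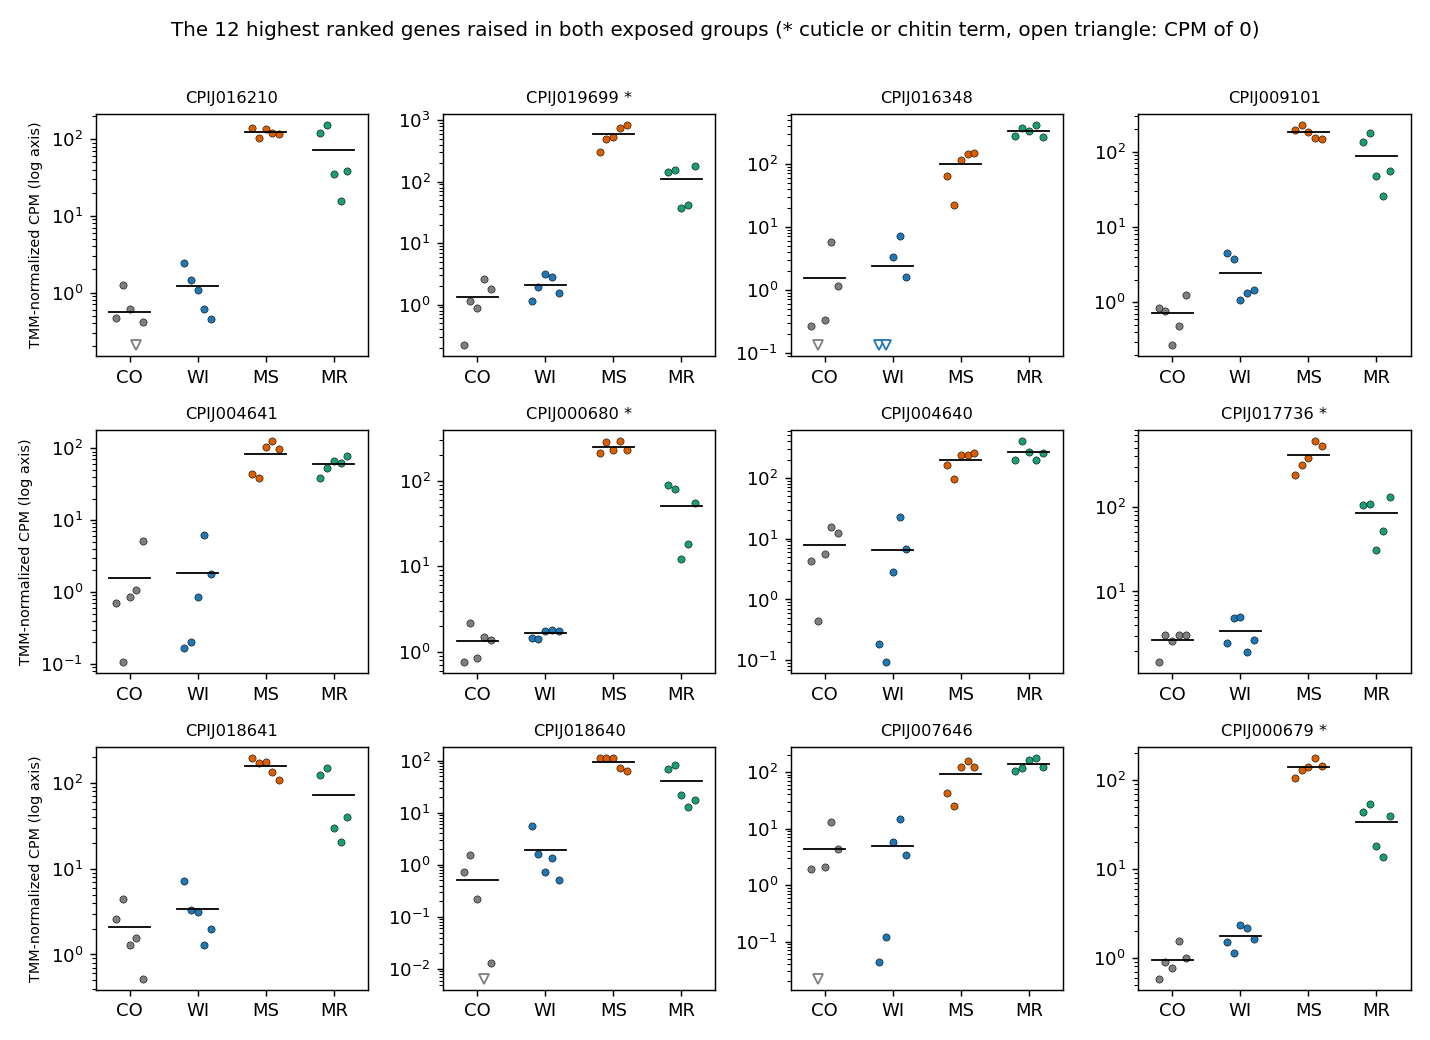
TMM-normalized CPM (log axis, own scale for each gene) of the 12 highest ranked genes in each library, 5 points per group and a bar at the group mean; an open triangle marks a CPM of 0. The 4 genes with a cuticle or chitin term have MS above MR, and CPIJ016348 has MR above MS.

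Of the 12 genes ranked highest, 8 carry neither a term nor a name. The first, CPIJ016210, had CPM values of 0.472, 1.27, 0.609, 0 and 0.414 in CO, 2.44, 1.45, 1.07, 0.604 and 0.457 in WI, 138, 104, 136, 119 and 116 in MS and 120, 155, 34.8, 15.6 and 39 in MR. MR1 and MR2 were as high as the MS libraries and MR3, MR4 and MR5 were lower, so the exposed groups overlapped and no difference was called (log2 fold change −0.75, FDR 0.561). In CPIJ009101, ranked 4, with 145 to 228 CPM in MS and 132, 176, 47.9, 25.6 and 54.9 CPM in MR, MR2 lay within the MS range and MR1 just below it. In CPIJ018641 and CPIJ018640, ranked 9 and 10, MR1 and MR2 lay within the MS range and the other MR libraries below it. Both have consecutive identifiers with CPIJ018642, ranked 13.

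A different order was seen in CPIJ016348, ranked 3. Its CPM values were 0.263, 0, 0.331, 5.78 and 1.16 in CO, 0, 0, 3.27, 7.10 and 1.6 in WI, 64.1, 22.4, 115, 142 and 147 in MS and 277, 372, 330, 417 and 267 in MR. Every MR library was above every MS library. The mean was 139-fold the WI mean in MR and 40.9-fold in MS, yet the fit over all groups did not call the difference (log2 fold change 1.76 ± 1.17, SE, FDR 0.425), while a fit restricted to these exposed libraries did (FDR 0.00655).

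CPIJ004641, CPIJ004640 and CPIJ007646, ranked 5, 7 and 11, resembled CPIJ016348 in the unexposed libraries. CPIJ004640 was at 0.186, 0.0940, 2.79, 22.8 and 6.82 CPM in WI and at 4.23, 0.435, 5.67, 15.7 and 12.6 CPM in CO, against 96.5 to 258 CPM in MS and 194 to 400 CPM in MR. WI1, WI2 and CO2 were low and WI4 was high in all 3 of these genes and in CPIJ016348. No difference between MR and MS was called in them (log2 fold change −0.46, 0.41 and 0.55, FDR 0.801, 0.849 and 0.823).

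These 2 sets were put together after their values were seen, and their agreement is a description over 20 libraries that share their scaling factors. After subtraction of group means from log2 CPM, the pairwise correlations within the set of CPIJ016348, CPIJ004641, CPIJ004640 and CPIJ007646 were 0.85 to 0.96. Within the set of CPIJ016210, CPIJ009101, CPIJ018641 and CPIJ018640 they were 0.40 to 0.80. Between the sets every correlation was negative, from −0.75 to −0.34. Within the 4 cuticle and chitin genes of the first 12 they were 0.62 to 0.85. Over all pairs, the mean correlation was 0.52 among the 20 cuticle and chitin members, 0.10 among the 178 members and 0.0044 among all genes tested.

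Some members lay next to each other by identifier. There were 42 members in 19 runs of consecutive identifiers, among them CPIJ000679 to CPIJ000681, CPIJ004640 to CPIJ004642 and CPIJ018640 to CPIJ018642. No such count was made for other sets of genes, so it is a description and says nothing about clustering of the members. The pairs CPIJ006796 and CPIJ006797 (structural cuticle genes) and CPIJ011081 and CPIJ011082 had correlations of 0.998 and 0.997 after subtraction of group means. Whether reads were shared between near-identical copies was not tested, and the separate values of such pairs are uncertain.

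MR and MS were compared directly, since the rule asked only that both be high and set no direction between them. Among all genes tested, 12.3% were called higher in MS than in WI and 4.95% higher in MR than in WI. The background over all genes does not carry the choice of genes raised in both groups. The counts and medians in this paragraph are therefore a description. Of the 178 genes, 57 (32.0%) were called lower in MR than in MS, 1 was called higher and 120 were not called (edgeR quasi-likelihood test, FDR under 0.05). Among all genes tested 4.18% were called lower in MR and 2.76% higher. The MR mean was below the MS mean in 144 of the 178 genes, and the median log2 fold change was −0.64 against 0.04 over all genes. Every MR library was below every MS library in 58 genes (background 6.86%) and above in 3 (background 6.63%). The MS mean was at least 2 times the MR mean in 72 genes, the reverse held in 2, and the means were within 1.25-fold of each other in 52.

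The scaling bears on this split. With library size as the only scaling, 18 members were called lower in MR and 7 higher, and the median was −0.06 for the members and 0.62 for all genes. The members' median thus stayed below that of all genes. Leaving out 1 library at a time gave 43 to 63 members lower in MR and 55 without MS1.

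**Figure D3:**
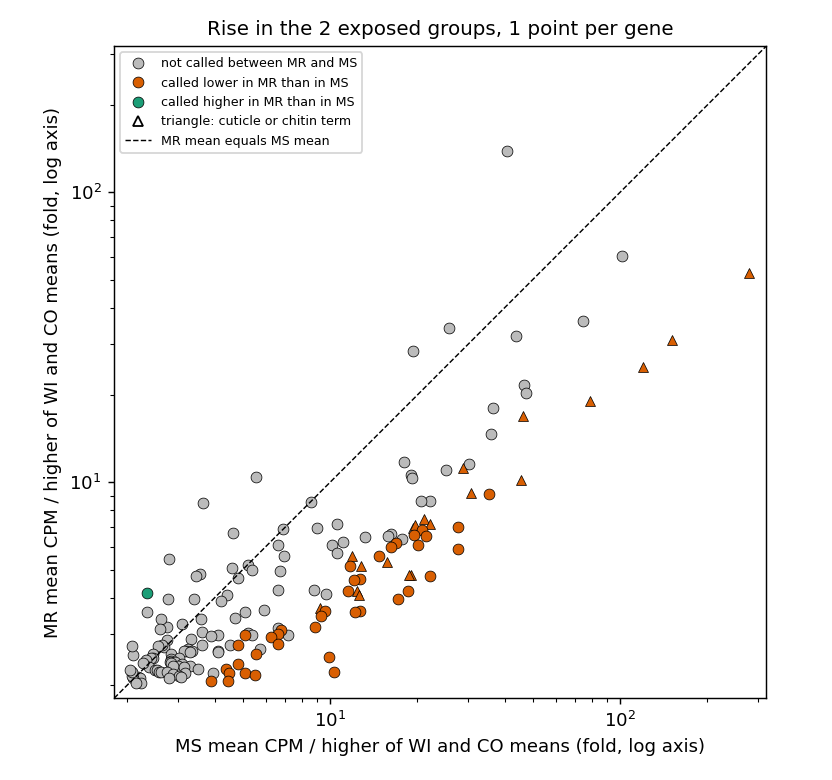
Mean CPM of MR (vertical) and of MS (horizontal) over the higher of the WI and CO means for each of the 178 genes, both as fold on log axes. Triangles are cuticle and chitin genes, orange marks the 57 genes called lower in MR than in MS, green the 1 called higher, and the dashed line equal means; all 20 triangles lie below the line.

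The listed cuticle and chitin genes come from the study's table of genes that differed between MR and MS in these libraries. Their calls between MR and MS, and their contrast with the other members, can follow from that choice and are a description. Cuticle and chitin genes made up 19 of the 57 genes lower in MR, and CPIJ003019 was the only one of the 20 not called (log2 fold change −1.48, FDR 0.0558). In all 20 every MR library was below every MS library. With library size alone 8 of the 20 were called lower and 0 higher, and the median was −0.96. Their log2 fold changes ran from −2.40 to −1.09 with a median of −1.60. Over the whole list of 56, 35 genes were called lower in MR and 4 higher (background 4.18% lower and 2.76% higher). The 4 were the chitin-binding genes CPIJ004536 and CPIJ010654 (log2 fold change 1.25 and 2.00) and CPIJ014268 and CPIJ014269 (2.06 and 1.33), which carry the same chitin synthase and UDP-glycosyltransferase terms as the member CPIJ016255. Among the other 158 members, 38 were called lower and the median was −0.47. Of the 146 members without a term or name, 31 were called lower.

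The 57 genes lower in MR were still raised there. Over the higher unexposed mean their median fold was 12.7 in MS and 4.65 in MR. Of them, 43 had a ratio of 3 or more and 14 a smaller ratio. The 52 genes with nearly equal means had a median fold of 2.77 in MS and 2.55 in MR. These counts and folds use the means that chose the members and are not tested.

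Outside the cuticle list, CPIJ005106, which has no term, had the largest fall from MS to MR. It was at 10.8 to 25.4 CPM in CO and 16.2 to 27.3 CPM in WI, at 402, 496, 500, 825 and 605 CPM in MS and at 182, 98.5, 72.4, 82.4 and 169 CPM in MR. The exposed groups did not overlap (log2 fold change −2.23 ± 0.30, SE, FDR 0.000111).

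Also lower in MR were the 2 members among 19 genes of tRNA processing and RNA modification. CPIJ011446, annotated as a pseudouridine synthase (an enzyme that isomerizes uridine in RNA), was at 2.90 to 5.34 CPM in CO and 4.56 to 5.51 CPM in WI, at 58.5, 90.3, 80.8, 127 and 99.3 CPM in MS and at 21.1, 35.8, 9.14, 7.41 and 30.2 CPM in MR (log2 fold change −2.14 ± 0.34, SE, FDR 0.000521). CPIJ002088 was at 6.79 to 32.6 CPM in CO and 14 to 33.4 CPM in WI, at 209, 489, 490, 499 and 379 CPM in MS and at 126, 87.4, 75.0, 96.2 and 90.4 CPM in MR (log2 fold change −2.12 ± 0.35, SE, FDR 0.000662). In the rest of that list the order was the opposite, since 16 of the 19 were called higher in MR than in MS and these 2 lower (background 2.76% and 4.18%). These 2 members, which the rule itself placed above WI in MS, are also the only genes of the list called higher there. In the same contrast 16 were lower (background 12.3% higher and 11% lower). The list was drawn from genes that the study called in these libraries. Its counts can follow from that choice and are a description.

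CPIJ003409, without a term, was the 1 member called higher in MR. It was at 1.26 to 2.17 CPM in CO, 1.25 to 2.61 CPM in WI, 3.81, 3.84, 4.96, 3.91 and 4.53 CPM in MS and 6.36, 8.56, 7.49, 6.25 and 8.95 CPM in MR. The exposed groups did not overlap (log2 fold change 0.84 ± 0.23, SE, FDR 0.0295). The call was lost without any 1 of MR2, MR3, MR5, MS1, MS2, MS4 or MS5, with FDR up to 0.0940 (without MS2).

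**Figure D4:**
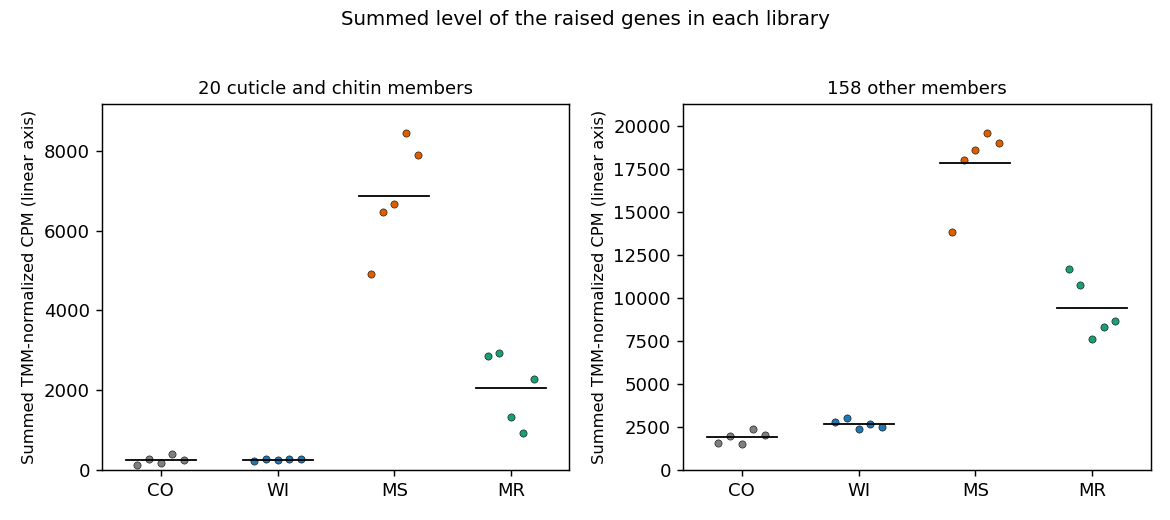
Summed TMM-normalized CPM (linear axes from 0) of the 20 cuticle and chitin members (left) and the 158 other members (right) in each library, with a bar at each group mean. In both panels every MS library is above every MR library. Every MR library is above every WI and CO library, which the rule required of each gene.

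WI and CO were compared in the same way, but the rule was not neutral between them. MR and MS were field females like WI, and the rule used the higher of the WI and CO means. A gene higher in CO thus had to rise further above WI to be kept. The counts and medians in this paragraph are therefore a description, and the background over all genes does not carry that choice. Of the 178 genes, 26 (14.6%) were called higher in WI than in CO and 0 lower (edgeR FDR under 0.05), where the background was 6.3% higher and 4.15% lower. With the replicate number as a block, 39 were called higher and 1 lower. At an unadjusted p under 0.05 the counts were 45 higher and 5 lower, and DESeq2 called 2 lower. The median log2 fold change was 0.31, against −0.02 over all genes. Every WI library was above every CO library in 19 members (background 4.27%) and below in 0 (background 2.38%). Without CO4, 40 members were called higher in WI. With library size alone 12 were called higher and 3 lower, and the medians were 0.03 for the members and −0.35 for all genes. Of the 26 genes, 13 were also called lower in MR than in MS.

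The cytochrome P450 gene CYP6P14 (CPIJ005955), ranked 139, is the only member with a gene name in the tables used. P450s are the enzymes that oxidize many insecticides, and 60 P450 genes were tested. CYP6P14 was at 3.47, 2.07, 3.01, 6.82 and 5.68 CPM in CO, 24.4, 15.8, 22.7, 23.2 and 25.3 CPM in WI, 42.1, 53.9, 77.1, 106 and 65.4 CPM in MS and 57.3, 45.3, 49.8, 55.5 and 55.9 CPM in MR. Every WI library was above every CO library (log2 fold change 2.41 ± 0.29, SE, edgeR FDR 1.14e-05). MS and MR overlapped and their difference was not called (log2 fold change −0.39 ± 0.27, SE, FDR 0.466); with library size alone it was 0.25. The mean level in MR was 2.37-fold and in MS 3.09-fold that of WI.

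At the background share of 1.02%, fewer than 1 member would fall in a list of this size, so a count of 0 is not set apart from it. No member was found among the 26 glutathione S-transferase genes or the 8 esterase genes of the study's tables. The same was true of the 25 antioxidant and glutathione genes, the 39 stress response and DNA repair genes and the 3 genes of cholinergic transmission. It was also true of the 51 genes of ribosome production, the 18 of the proteasome, the 39 serine peptidases, the 25 peptidase inhibitors, the 10 of lipid breakdown, the 4 of egg production and the 3 of wound healing.

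**Figure D5:**
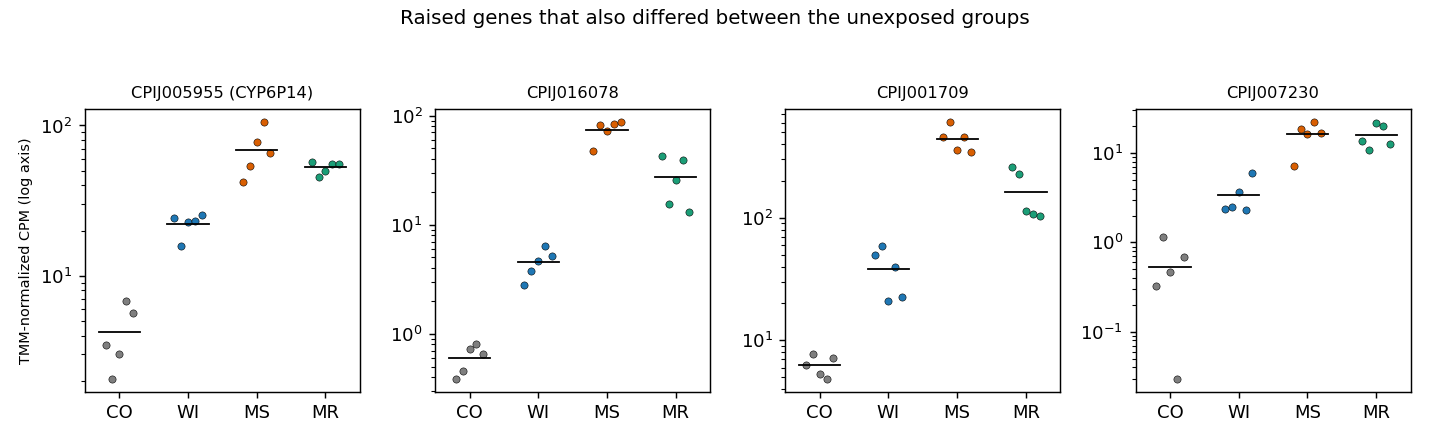
TMM-normalized CPM (log axis, own scale for each gene) in each library of CYP6P14 and of the 3 members with the largest rise from CO to WI, 5 points per group and a bar at the group mean. In all 4 genes the CO libraries lie below the WI libraries. The WI libraries lie below the MS and MR libraries, which the rule required.

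The members with the largest differences between the unexposed groups have no term. CPIJ016078 was at 0.386, 0.455, 0.725, 0.797 and 0.657 CPM in CO, 2.81, 3.75, 4.67, 6.38 and 5.18 CPM in WI, 47, 82.1, 71.6, 82.8 and 87.8 CPM in MS and 42.6, 15.5, 25.7, 39 and 13 CPM in MR. No pair of groups overlapped, and the log2 fold change was 2.92 ± 0.33 for WI versus CO (SE, FDR 5.53e-06) and −1.45 ± 0.31 for MR versus MS (SE, FDR 0.00617). CPIJ001709 was at 4.85 to 7.80 CPM in CO, 21.1 to 59.1 CPM in WI, 342 to 610 CPM in MS and 104 to 260 CPM in MR. It had the same order, with 2.62 ± 0.33 for WI versus CO (SE, FDR 1.65e-05) and −1.45 ± 0.31 for MR versus MS (SE, FDR 0.00652).

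CPIJ007230 differed between WI and CO but not detectably between MR and MS. It was at 0.0298 to 1.15 CPM in CO, 2.30 to 5.94 CPM in WI, 7.11 to 22.4 CPM in MS and 10.9 to 21.8 CPM in MR. The log2 fold change of WI versus CO was 2.66 ± 0.52 (SE, FDR 0.00205), and in a fit of WI and CO alone the FDR was 0.0502. That of MR versus MS was −0.04 ± 0.48 (SE, FDR 0.977).

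A few members belong to energy and amino acid metabolism. CPIJ014577, the only member of 29 genes of glycolysis and the tricarboxylic acid cycle, was at 54.8, 192, 76.0, 186 and 108 CPM in CO, 239, 512, 340, 463 and 400 CPM in WI, 874, 2076, 1723, 1977 and 2014 CPM in MS and 816, 802, 842, 919 and 666 CPM in MR. WI lay above CO (log2 fold change 1.66 ± 0.32, SE, FDR 0.00183). MR and MS overlapped only through MS1, and the log2 fold change was −1.10 ± 0.32 (SE, FDR 0.0378), a call lost without any 1 of the MR libraries or of MS2 to MS5 (FDR 0.0562 to 0.0941) and with library size alone (FDR 0.125).

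CPIJ012704, annotated as a pyrroline-5-carboxylate reductase (the enzyme of the last step to proline), had means of 10.5 CPM in CO, 36.4 in WI, 111 in MS and 77.7 in MR, and was called higher in WI than in CO (log2 fold change 1.79, FDR 0.000365). It was picked after its values were seen. CPIJ040089, of the NADH to ubiquinone step of the respiratory chain and the only member of 36 respiratory genes, was at 0.956 to 6.92 CPM in CO, 2.83 to 9.40 CPM in WI, 22.5 to 96.2 CPM in MS and 10.8 to 27.0 CPM in MR. Neither comparison was called for it (FDR 0.112 for MR versus MS and 0.147 for WI versus CO).

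Other members with a term, also picked after their values were seen, were 2 acyltransferases, a metallocarboxypeptidase, a hydrolase of carbon-nitrogen bonds, an oxidoreductase that binds flavin adenine dinucleotide and a gene of organophosphate (phosphate ester) metabolism. The acyltransferase CPIJ011827 had means of 1.31 CPM in CO, 3.91 in WI, 65.8 in MS and 24.2 in MR, and was called in both comparisons (FDR 0.00544 for WI versus CO and 0.0122 for MR versus MS). The metallocarboxypeptidase CPIJ018952, of an enzyme class that trims proteins from the carboxyl end, had means of 6.67 CPM in CO, 9.49 in WI, 139 in MS and 52.6 in MR (FDR 0.0233 for MR versus MS).

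At the lower end of the rule, the last genes inside were CPIJ000838 and CPIJ009137, both with a ratio of 2.03. CPIJ000838 averaged 5.71 CPM in CO, 4.98 in WI, 12.7 in MS and 11.6 in MR. The first genes outside were CPIJ017146 and CPIJ016662, with ratios of 2.00 and 1.99. CPIJ017146 averaged 11.5 CPM in CO, 11.5 in WI, 44.2 in MS and 22.9 in MR, a larger rise in MS than either of the last genes inside. With a fold of at least 1.5 in place of 2, 251 genes met the rule.

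The spread between libraries of a group was smallest in MS, both for the members and over all genes tested. The median coefficient of variation of the members' CPM was 33.5% (WI), 42.3% (CO), 34.1% (MR) and 21.3% (MS). Over all genes tested it was 33.4%, 48.1%, 27.8% and 26.6%. The rule asked for libraries without overlap and so also chose on spread, and the members' values are a description. Within MR, MR1 held the highest value in 62 members and MR4 the lowest in 76. Within MS, MS4 held the highest in 63 and MS1 the lowest in 60.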

How the data were processed

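RNA of 20 pools (5 each of WI, CO, MR and MS) was sequenced. Per the labels and methods, the authors trimmed reads with Trim Galore 0.6.4, aligned them with STAR 2.7.3a to the CpipJ2.4 genome, added read groups with Picard 2.20.1 and deposited raw read counts per gene from featureCounts 1.6.0. The handling of strand and of multiply mapped reads is not given in the sources used here.

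In R 4.3.3, counts were filtered with filterByExpr (minimum count 10, minimum total 15), scaled by TMM and fitted with the quasi-likelihood test of edgeR 4.0.16, 1 mean for each of the 4 groups, with Benjamini-Hochberg FDR over 17499 genes and calls at 0.05. DESeq2 1.42.0 and other settings were alternatives. Depth was 143972261 to 189723320 counts per library. No 2 libraries of a group agreed within sampling noise.

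Members, lists and tests were chosen with earlier results of these data known. Named genes were the 12 ranked highest, members with a name in the study's tables, the up to 4 largest rises and 4 largest falls from MS to MR and up to 3 each from CO to WI among called genes without overlap, up to 3 members of each list, and those at the threshold. Lists came from the study's ontology tables.

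WI and CO libraries with the same replicate number deviated together (correlation over all genes tested 0.168 to 0.465). With different numbers the values were −0.354 to 0.262. These ranges overlap, so it is not certain that the numbers pair these groups. Same-number values were −0.02 to 0.127 for MR and MS, 0.0928 to 0.179 for WI and MR, and 0.0228 to 0.274 for WI and MS. Different-number values were −0.15 to 0.145, −0.225 to 0.212 and −0.189 to 0.132 in the same order, so these ranges overlap too.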

Additional observations from a re-analysis of the deposited data

Results flagged for a closer look

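The named genes and the members' summed levels and share of counts were examined in 120 groups of 5 libraries. In 8 of these, 1 library stood far from the other 4, measured as its gap to the nearest library over the whole range of the group. Chance gives about 1 in 20 for independent, normally distributed values, and CPM values of genes that vary together may be neither. CPIJ016348 had a gap of 0.800 in CO, where CO4 was at 5.78 CPM and the next library at 1.16. CPIJ004641 had a gap of 0.737 in WI, from WI4 at 6.32 CPM, and of 0.811 in CO, from CO5 at 5.15 CPM. CPIJ018640 had a gap of 0.789 in WI, from WI1 at 5.66 CPM, and CPIJ003409 of 0.777 in CO, from CO4 at 2.17 CPM. Single low libraries were CO1 for the cuticle gene CPIJ017736 (gap 0.719, 1.47 CPM), WI2 for CYP6P14 (CPIJ005955, gap 0.721, 15.8 CPM) and WI5 for CPIJ016662, the gene just outside the rule (gap 0.720, 10.2 CPM).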

How the results depend on the processing

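The count of genes meeting the rule was 181 with RLE factors, 122 with library size alone, 186 without the 2 most counted genes, 177 to 207 with 1 library left out and 98 with a fold of at least 3. Members lower in MR than in MS numbered 18 with library size alone, 68 with DESeq2 and 43 to 63 with 1 library left out. With the replicate block they numbered 81, though the replicate numbers were not shown to pair MR and MS. Members higher in MR numbered 7 with library size alone, 5 with the 2 groups fitted alone and 0 to 1 with 1 library left out. Members higher in WI than in CO numbered 39 with the replicate block, 30 with DESeq2, 12 with library size alone and also with the 2 groups fitted alone, and 20 to 40 with 1 library left out (40 without CO4). Members lower in WI numbered 1 with RLE factors, 1 with a filter of 1 CPM, 1 without the 2 most counted genes, 1 with the replicate block, 3 with library size alone, 2 with DESeq2 and 0 to 4 with 1 library left out (4 without CO2). With library size alone, the MR versus MS log2 fold change turned to 0.19 for CPIJ004641 and 0.25 for CPIJ005955. Of 672 values for 24 named fold changes, 647 kept direction and call. Cuticle and chitin genes higher than in WI, an alternative set added after seeing the data, numbered 39 to 45 in MR and 50 to 52 in MS. The causes were not tested. Where an unexposed library had a count near 0, folds rest on few reads. A level under 1 CPM was not always so low, since CPIJ000679 had 162 reads at 0.584 CPM in CO1.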
